A study of Homo sapiens with 15 samples.

Results

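Transcripts of 10 nuclear genes for structural subunits of respiratory complex IV were measured in a human oral squamous carcinoma line: COX4I1, COX5A, COX5B, COX6A1, COX6B1, COX6C, COX7A2, COX7B, COX7C and COX8A. The members were the non-control array probes annotated with a RefSeq accession of one of these genes, which gave 10 probes, 1 for each gene, of 42405 non-control probes on the array. The cells were PE/CA-PJ41, transfected with a plasmid. Samples labelled CYGB+ carried the pCMV6-Neo plasmid with the cDNA of cytoglobin, a haem globin, and per the study's methods came from 1 stable clone picked and kept under G418. Samples labelled NCE are described in the labels as carrying the empty vector, and parts of the study's text call this control untransfected. All cells had 24 h in medium before RNA was taken. Each group had 3 biological replicates, with RNA extracted on 3 occasions. The NCE replicates were hybridised to 3 arrays each and the CYGB+ replicates to 2 arrays each, 15 arrays in all. The study compared the groups to ask what cytoglobin changes in the transcriptome of these cells, and the question here is how complex IV subunit transcripts differed between them.

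Complex IV, cytochrome c oxidase, is the last enzyme of the respiratory chain: it passes electrons from cytochrome c to oxygen and pumps protons across the inner mitochondrial membrane. Its catalytic core is encoded by mitochondrial DNA and holds the haem a and copper centres, and nuclear-encoded subunits surround that core and are needed for its assembly, stability and regulation. The subunits join in modules, each built around one core subunit, so that the 10 genes can be ordered by the module in which their product enters: COX4I1 and COX5A with MT-CO1, COX5B, COX6C, COX7B, COX7C and COX8A with MT-CO2, and COX6A1, COX6B1 and COX7A2 with MT-CO3.

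The sequences before the starts of 4 of these genes are shown, the 3 whose probe passed the test of the groups and COX5A, whose difference was smallest. Each is the 250 bases before the annotated start, written 5′ to 3′ on the strand of the gene, from RefSeq on GRCh38.p14. Capitals mark the letters CCGGAA, the core of the sites bound by ETS factors such as GABPA, read on either strand (TTCCGG when on the other), with the adjoining base where the longer CCGGAAG was matched.
COX7C, chr5:86617691-86617940, plus strand: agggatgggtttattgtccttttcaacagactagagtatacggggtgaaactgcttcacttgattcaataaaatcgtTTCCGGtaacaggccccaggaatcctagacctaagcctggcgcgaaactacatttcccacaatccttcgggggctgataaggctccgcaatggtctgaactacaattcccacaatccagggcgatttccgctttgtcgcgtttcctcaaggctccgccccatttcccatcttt
COX7B, chrX:77899218-77899467, plus strand: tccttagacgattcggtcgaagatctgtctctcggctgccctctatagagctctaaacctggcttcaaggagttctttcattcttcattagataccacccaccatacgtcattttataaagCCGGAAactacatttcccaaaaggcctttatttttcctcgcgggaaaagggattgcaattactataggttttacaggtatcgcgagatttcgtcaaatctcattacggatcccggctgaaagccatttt
COX8A, chr11:63974370-63974619, plus strand: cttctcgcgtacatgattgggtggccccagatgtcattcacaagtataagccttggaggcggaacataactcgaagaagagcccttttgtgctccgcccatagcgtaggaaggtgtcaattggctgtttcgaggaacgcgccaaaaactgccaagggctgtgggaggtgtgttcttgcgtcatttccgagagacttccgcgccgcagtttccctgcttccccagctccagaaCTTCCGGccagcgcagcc
COX5A, chr15:74938074-74938323, minus strand: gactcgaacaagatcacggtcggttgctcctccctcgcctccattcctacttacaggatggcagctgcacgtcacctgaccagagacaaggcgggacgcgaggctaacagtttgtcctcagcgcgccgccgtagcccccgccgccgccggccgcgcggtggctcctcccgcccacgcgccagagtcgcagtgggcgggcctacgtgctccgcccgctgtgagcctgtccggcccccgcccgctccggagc
Windows were matched for 9 of the 10 genes, all but COX6C, 10 windows in all, because COX7A2 had more than 1 start. The letters CCGGAA were in 8 of these 10 windows, against 14.5% of the 35116 windows of the same length over all genes. This core was chosen after the sequences had been read. The longer CCGGAAG was in 4 of 10, those of COX5B, COX6A1, COX6B1 and COX8A, against 8.52% of all windows. The consensus of NRF1, a factor of many respiratory genes, was in 0 of 10 windows (5.07% of all) and the YY1 letters AAGATGGC in 0 of 10 (1.36% of all), both strands searched. Among the windows with the core were those of the 3 subunits that passed the test. The core was also in windows of COX4I1, COX5B, COX6A1, COX6B1 and COX7A2, which did not pass. COX7C had 1 match beginning 173 bases before its start, COX7B 1 at 129 bases, COX8A 1 at 17 bases, and COX5A none. A match of letters is a description and not a bound site.

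All 10 probes were well above background on all 15 arrays, and no spot of theirs was saturated. Values are log2 intensities of the green channel after quantile normalisation, a level on a scale that compares arrays for 1 probe and not probes with each other. The CYGB probe, annotated to the transfected gene, was well above background on all 15 arrays and did not separate the groups. Its level was 11.85, 12.15 and 11.96 in the NCE replicates and 11.38, 12.44 and 11.97 in the CYGB+ replicates, a difference of -0.05 on the log2 scale (95% interval -0.63 to 0.52, limma adjusted p = 0.906). This probe was planned as a check of the labels, and it did not bear them out. The part of the transcript it reads is not given in the sources used here. NCE and CYGB+ are therefore used below as label names. The study itself reports cytoglobin in its clones by qPCR and in-cell ELISA, and calls the parent line non-expressing. The probe's signal on every NCE array differs from that description, and the reason was not tested. All 10 squamous epithelium marker probes, such as KRT5 and TP63, were well above background on all 15 arrays. Of these, 5 had a difference above 0 and 5 below. KRT6A (-0.46, limma adjusted p = 0.0458) and ITGB4 (-0.66, adjusted p = 0.0320) were lower in the samples labelled CYGB+, and were at -0.048 and -0.28 with slide as a term (adjusted p = 0.972 and 0.881). KRT14 was at 0.76 (adjusted p = 0.0600, and 0.0123 with replicates paired by number, the replicate block) and KRT17 at 0.63 (adjusted p = 0.317). Among markers of other cells, CD3E, VWF, PDGFRB and LUM were well above background on 0 arrays, COL1A1 on 12, CDH5 on 11, and CD68 and COL1A2 on all 15. No probe of PECAM1 was well above background on more than 1 array, and none of PTPRC on more than 5. COL1A2, a fibroblast collagen gene, differed by -1.32 (limma adjusted p = 0.00271, and -1.55 with slide as a term), while COL1A1 was at 0.10 (adjusted p = 0.696) and CD68 at 0.22 (adjusted p = 0.344). The summed intensity of all 15 probes of the other-cell list was 1513 to 1772 in NCE and 1444 to 1595 in CYGB+. Only 3 of these probes were bright enough to be tested. The sum therefore includes values near the floor and is not a measure of the amount of other cells. Their part in the subunit results was not tested.

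The groups were almost wholly on different slides. Slide 1 held 8 NCE arrays, and slide 2 held the remaining NCE array, a repeat of replicate 1, with all 6 CYGB+ arrays. In addition, 3 arrays stood apart over all probes tested. Repeat 1 of CYGB+ replicate 1 had a median correlation of 0.921 with the other arrays, repeat 2 of NCE replicate 3 had 0.965 and repeat 2 of CYGB+ replicate 3 had 0.969, against 0.976 to 0.983 for the rest. The differences of the 10 subunits with slide held constant, and without the arrays that stood apart, follow the values of the single subunits.

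Of the 10 subunit transcripts, COX7C, COX7B and COX8A were higher in the samples labelled CYGB+ past the threshold (adjusted p under 0.05), by 2.41, 1.54 and 1.61 times, and 0 were lower. They are 3 of the 5 members of the MT-CO2 module, in which COX5B and COX6C were not called. Over all 19605 probes tested, 12.1% were called in either direction, 6.11% as higher and 5.95% as lower, against 3 of 10 members. Across the members, 9 of 10 differences were above 0 with a median of 0.17 on the log2 scale, while over all probes 51.3% were above 0 with a median of 0.01. None of the 3 passed in the fit with slide as a term, as given below.

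COX7C is a single-span subunit that crosses the inner membrane beside the catalytic core, and its transcript had the largest difference of the 10. Its level was 13.52, 13.06 and 13.27 in the NCE replicates and 14.80, 14.55 and 14.30 in the CYGB+ replicates. The groups did not overlap, and every CYGB+ array, from 14.18 to 15.17, was above every NCE array, the highest of which was 13.95. The difference was 1.27 ± 0.17 (SE, n = 3 against 3), a fold of 2.41 with a 95% interval of 1.83 to 3.16 (limma adjusted p = 0.00665). The array carries 10 spots of this probe, and within an array their log2 values had an SD of 0.025 to 0.30, with a median of 0.13. That SD is technical, between spots of 1 array, and is not the error of the group difference.

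COX7B is another membrane-spanning subunit, needed for assembly of the complex. Its level was 12.72, 12.61 and 12.67 in NCE and 13.35, 13.32 and 13.21 in CYGB+, with no overlap of replicates. The difference was 0.63 ± 0.10 (SE), a fold of 1.54 with an interval of 1.32 to 1.81 (limma adjusted p = 0.00998). The replicates of either group lay within a narrow band, and the SE was the smallest of the 10.

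COX8A, the ubiquitous isoform of subunit VIII, was at 14.36, 14.11 and 14.13 in NCE and at 14.71, 15.14 and 14.82 in CYGB+. Its replicates did not overlap either, but on single arrays the lowest CYGB+ value, 14.55, was only just above the highest NCE value, 14.53. The difference was 0.69 ± 0.14 (SE), a fold of 1.61 with an interval of 1.29 to 2.02 (limma adjusted p = 0.0232). It was the least stable of the 3 calls, with adjusted p = 0.102 without NCE replicate 2, 0.0952 without NCE replicate 3 and 0.0504 without CYGB+ replicate 3. The COX7B call was also lost without NCE replicate 2 (adjusted p = 0.0598) or NCE replicate 3 (adjusted p = 0.0555), while COX7C stayed below 0.05 with any of the 6 replicates left out, at 0.0109 to 0.0365.

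The remaining subunits of the MT-CO2 module did not pass. COX5B, which carries a zinc ion on the matrix side, was at 12.03, 12.21 and 11.84 in NCE and at 11.80, 12.61 and 12.16 in CYGB+. The groups overlapped, the difference was 0.16 (95% interval -0.32 to 0.64, limma adjusted p = 0.641), and repeats of 1 replicate lay far apart, at 10.85 and 12.74 in CYGB+ replicate 1. Without the first of these arrays the difference was 0.48 (adjusted p = 0.0751). COX6C, another membrane-spanning subunit, was at 13.48, 13.59 and 13.65 in NCE and at 13.32, 13.85 and 13.71 in CYGB+. These overlapped as well, with a difference of 0.05 (interval -0.29 to 0.40, adjusted p = 0.846). Repeat 1 of CYGB+ replicate 1 had COX6C at 13.03, its lowest value, and without this array the difference was 0.15 (adjusted p = 0.317).

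In the MT-CO1 module neither subunit passed. COX4I1, through which adenine nucleotides regulate the enzyme, was at 12.97, 12.91 and 13.15 in NCE and at 13.18, 13.24 and 13.09 in CYGB+, a difference of 0.16 (interval -0.09 to 0.41, limma adjusted p = 0.360). COX5A, its partner on the matrix side, was at 12.49, 12.69 and 12.86 in NCE and at 12.52, 12.64 and 12.86 in CYGB+. The COX5A groups spanned nearly the same range, with a difference of -0.0046 (interval -0.33 to 0.32, adjusted p = 0.987). That interval still allows a difference of the size found for COX4I1 or COX6B1.

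The MT-CO3 module gave no call. COX7A2, the ubiquitous isoform of subunit VIIa, came nearest. Its level was 13.89, 13.89 and 14.09 in NCE and 14.70, 14.19 and 14.21 in CYGB+, so that the groups did not overlap, and the difference was 0.41 ± 0.16 (SE, interval 0.04 to 0.77, limma adjusted p = 0.133). That distance rested largely on 1 array, repeat 1 of CYGB+ replicate 1, at 15.32, and without this array the difference was 0.20 (adjusted p = 0.170). COX6A1, the isoform of subunit VIa found outside heart and skeletal muscle, was at 14.80, 14.86 and 14.98 in NCE and at 15.04, 15.15 and 14.89 in CYGB+, overlapping, with a difference of 0.15 (interval -0.12 to 0.41, adjusted p = 0.432). COX6B1, which faces the intermembrane space, was at 13.10, 13.11 and 12.91 in NCE and at 13.08, 13.57 and 13.00 in CYGB+. It too overlapped, with a difference of 0.18 (interval -0.20 to 0.55, adjusted p = 0.507). Without repeat 1 of CYGB+ replicate 1 this was 0.32 (adjusted p = 0.182).

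**Figure D1:**
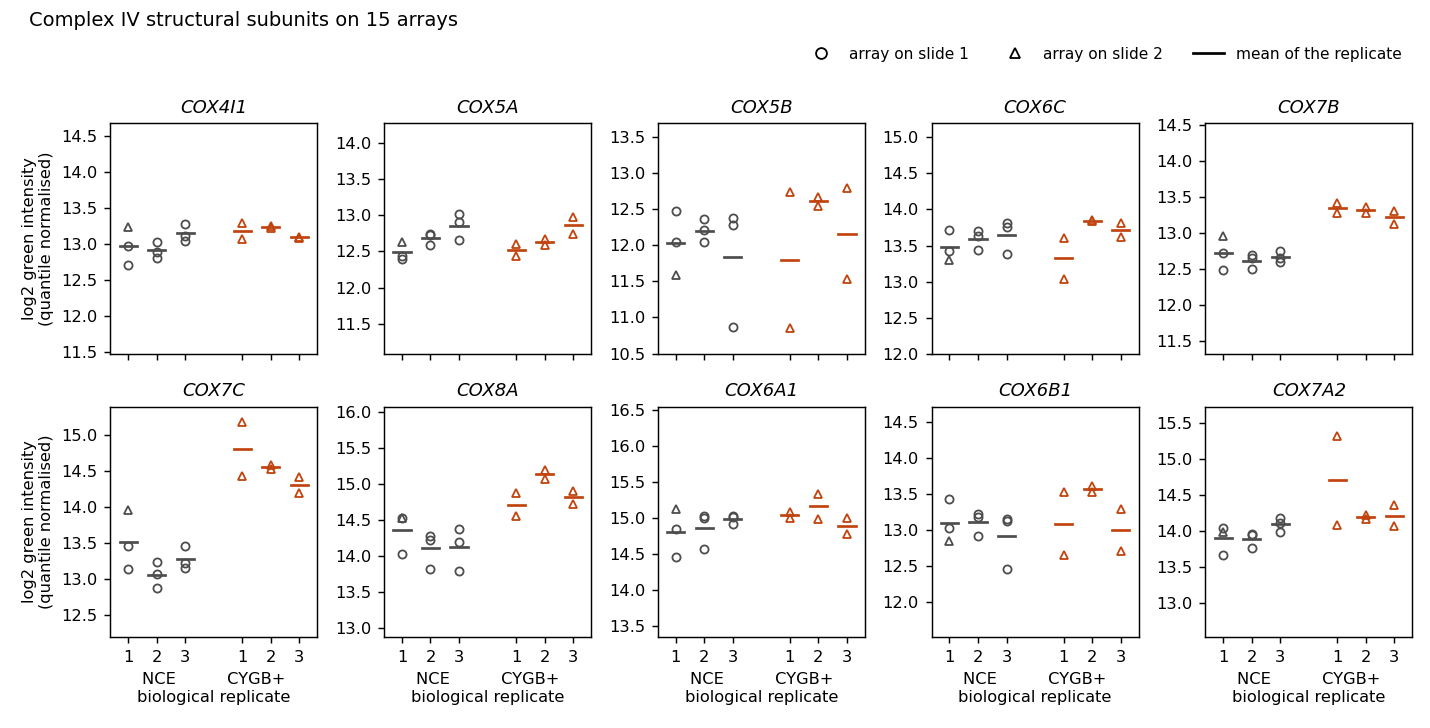
Log2 green-channel intensity (vertical axis, quantile normalised) of the 10 subunit probes on the 15 arrays, by biological replicate (horizontal axis), with circles for slide 1, triangles for slide 2 and a bar for the mean of each replicate. In COX7B, COX7C and COX8A the CYGB+ arrays lie above the NCE arrays, and for COX7C the NCE array on slide 2, at 13.95, is the highest of its group.

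With the arrays that stood apart left out, more subunits passed. Without all 3 of them, 5 of 10 members were called. COX5B (0.52, limma adjusted p = 0.00893) and COX6B1 (0.34, adjusted p = 0.0321) joined the 3 above. Calls over all probes went from 2364 to 4960, or 25.3% of those tested. COX7C was at 1.21, COX8A at 0.72 and COX7B at 0.59. Of those not called, COX7A2 was at 0.14 (adjusted p = 0.343), COX4I1 at 0.22, COX6A1 at 0.18, COX6C at 0.14 and COX5A at -0.045. COX5B was at 10.86 on the NCE array and at 10.85 and 11.53 on the CYGB+ arrays left out, its lowest values of all. This alternative was chosen after the data were seen.

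On slide 2, the 1 NCE array had higher COX7C and COX7B than the NCE arrays on slide 1. The NCE array on slide 2 had COX7C at 13.95, above the 12.87 to 13.46 of the NCE arrays on slide 1 and below the CYGB+ range. The same array had COX7B at 12.96, against 12.48 to 12.75 on slide 1. Within NCE replicate 1, the slide 2 value exceeded the mean of the slide 1 values by 0.65 for COX7C, 0.36 for COX7B and 0.25 for COX8A, with a median of 0.04 over all probes and 7 of 10 members higher on slide 2. The shift was not one way in all members, since COX5B was lower on slide 2 by -0.68 and COX6B1 by -0.38.

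With slide as a term of the limma fit over the 15 arrays, the COX7C difference was 0.63 (adjusted p = 0.293), that of COX7B 0.32 (adjusted p = 0.274) and that of COX8A 0.40 (adjusted p = 0.601). No member was called, and 3.62% of all probes were called. Before adjustment, 2 of 10 members were under 0.05, beside 2869 of the 19605 probes tested. Within slide 2 alone, where 1 NCE array stood against 3 CYGB+ replicates, the differences were 0.60 for COX7C, 0.33 for COX7B and 0.36 for COX8A (limma adjusted p = 0.471, 0.639 and 0.682). With a lone NCE array, a lack of calls in that fit says little about the members. All 3 kept their direction with slide held constant, at 0.472 to 0.577 of the size of the difference over all arrays on the log2 scale, while COX4I1 turned to -0.10 and COX6A1 to -0.16 with slide as a term. COX5B was at 0.66, COX6B1 at 0.42, COX7A2 at 0.35, COX6C at 0.31 and COX5A at -0.040 in that fit, which is larger than over all arrays for COX5B, COX6B1 and COX6C. With 1 NCE array to tie the slides together, slide and label cannot be told apart on these arrays beyond these values. The study also measured COX7C by RT-qPCR in control and cytoglobin-expressing lines, with the values shown in a figure and not used here.

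**Figure D2:**
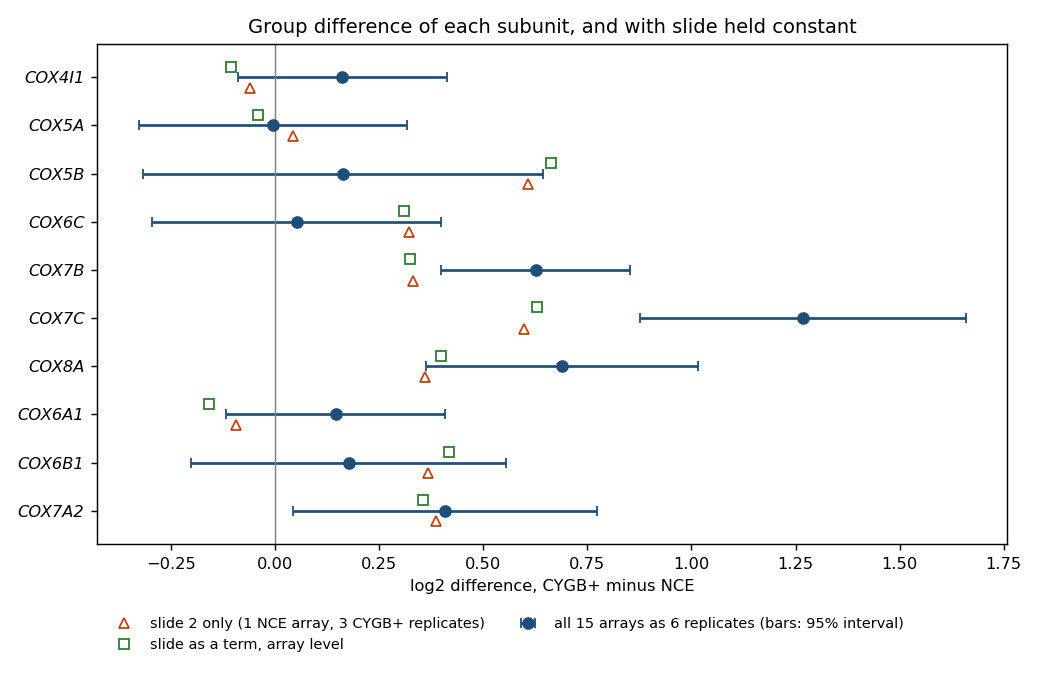
Log2 difference, CYGB+ minus NCE (horizontal axis), of each subunit probe (vertical axis) over 6 replicates with 95% intervals (circles), with slide as a term (squares) and within slide 2 (triangles). COX7C falls from 1.27 to 0.63 and 0.60, and COX7B from 0.63 to 0.32 and 0.33.

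Other complex IV genes were counted from a list of isoforms and later-named subunits and a list of assembly factors. The first list had 10 probes for 8 of its 11 genes, and 4 of these probes passed the filter on dim probes. The median difference of the 4 was 0.40. Of the 4, 3 from 2 genes were higher in CYGB+ and 0 lower, beside 6.11% higher and 5.95% lower over all probes. They were COXFA4, earlier called NDUFA4, a subunit first assigned to complex I (0.43, limma adjusted p = 0.0326), and both probes of COX7A2L, a relative of COX7A2 that links complexes III and IV in supercomplexes (0.43, adjusted p = 0.0391, and 0.38, adjusted p = 0.0387). The probe of COX7A2L at 0.38 lost its call when replicates were paired by number (adjusted p = 0.0548). Of 32 probes of assembly factors, 2 were higher and 1 was lower, or 9.38% beside the 12.1% over all probes, with a median of 0.20. With the replicate block, which called 16.0% of all probes, 5 of the 32 were higher and 1 was lower. COA4, a twin-cysteine protein of the intermembrane space, was higher by 0.65 (adjusted p = 0.0365), and 1 of 3 probes of LRPPRC, which stabilises mitochondrial mRNAs, was higher by 0.51 (adjusted p = 0.0201) while the others were at -0.08 and -0.01. COX11, which delivers copper to the core, was lower by -0.51 on 1 probe (adjusted p = 0.0497) and at -0.07 on the other (adjusted p = 0.705).

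The electron donor side was mixed. The 3 probes of CYCS, the cytochrome c that complex IV oxidises, were at 0.08, 0.07 and -0.05 (limma adjusted p = 0.782, 0.759 and 0.883). CYC1, the cytochrome of complex III that hands electrons to it, was higher by 0.61 (adjusted p = 0.0398). Among the other complexes, complex I had 4 probes higher and 1 lower of 42, or 11.9%, beside 12.1% over all probes. Complex III had 1 higher, the same probe of CYC1, and 0 lower of 12, or 8.33%. ATP synthase had 2 higher and 2 lower of 18, or 22.2%. The median differences of these complexes, in that order, were 0.18, 0.16 and 0.10 on the log2 scale, beside 0.17 for the complex IV subunits. With the replicate block, which called 16.0% of all probes, complex III had 2 higher of 12. With slide as a term, COXFA4 was at 0.33, COX7A2L at 0.13 and 0.16, COA4 at 0.56, the called probe of LRPPRC at 0.43, that of COX11 at -0.19 and CYC1 at 0.45. That fit called 3.62% of all probes. Of complex I it called 2 probes of 42, and of ATP synthase 1 of 18. It called 0 of any complex IV list or of the electron donors.

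**Figure D3:**
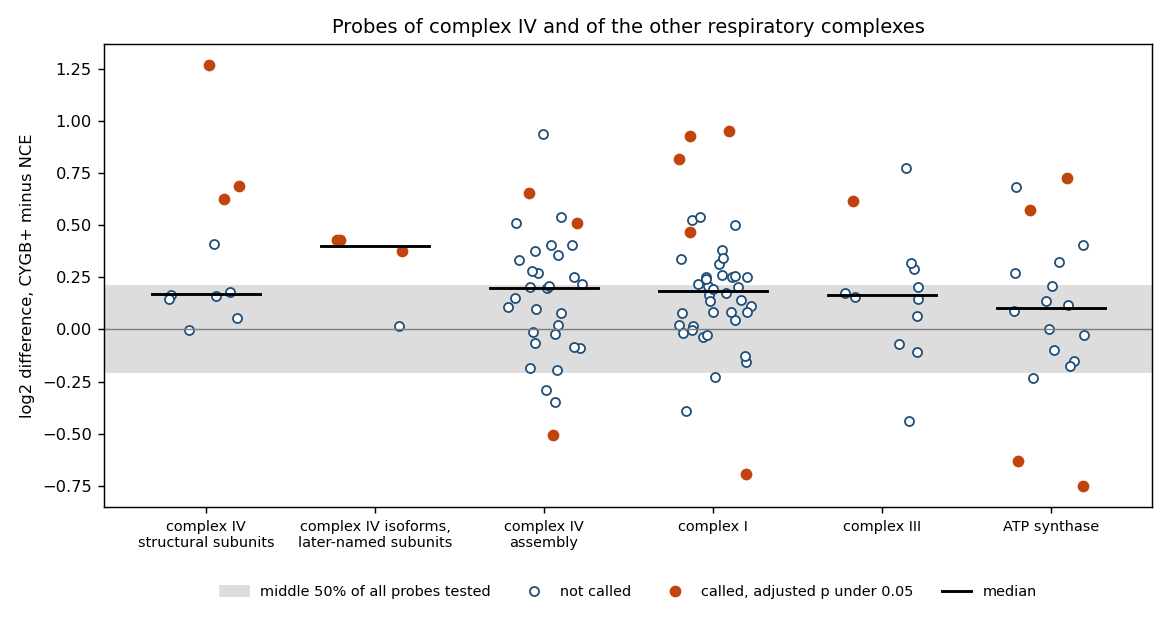
Log2 difference, CYGB+ minus NCE (vertical axis), of each probe tested in 6 gene lists of the respiratory chain (horizontal axis), filled where called, with a bar for the median of each list and a grey band for the middle 50% of all probes, -0.20 to 0.21. COX7C, at 1.27, is the highest point, and the medians of 5 of the lists lie inside the band.

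In bulk samples such as these, fewer cells of a kind and less RNA per cell cannot be told apart. In the fit of 3 replicates against 3, arrays were averaged first. Its p-values measure the spread between replicate means of 1 clone and its control. Such means still hold some of the spread between arrays. The number of replicates limits the precision of these p-values. In the fit with slide as a term, single arrays were the units, with a correlation of 0.19 between repeats of a replicate. Spread between arrays therefore entered the p-values of that fit directly.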

How the data were processed

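RNA of PE/CA-PJ41 cells was labelled (50 ng) and hybridised to Agilent whole-genome arrays, 9 of NCE and 6 of CYGB+ samples. The deposited scanner files, made by the authors with Feature Extraction 10.7.3.1 under a 2-colour protocol, hold green and red intensity per spot. The labels give all samples as Cy3, so the green channel was used, although the study's methods place the control in Cy5. The deposited value table holds log2 values of 15040 probes, which followed the green channel (correlation of the group difference 0.96) and were centred on the CYGB+ median, with column medians of -0.16 to 0.18. Its scale and signal column are not given in the sources used here, and it served as an alternative.

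Green median intensity was background-corrected with normexp on the median background (offset 50). The mean signal planned for this step was absent from the deposited scanner data, and the median stood in for it. Values were taken to log2 and quantile normalised over 15 arrays with limma 3.58.1 in R 4.3.3. Control spots and outlier-flagged spots were left out, spots of a probe averaged, then arrays of a replicate. Probes well above background on every array of at least 1 group were tested (19605 of 42405) with lmFit and eBayes, 3 replicates against 3, with Benjamini-Hochberg adjustment over all of them and calls at adjusted p under 0.05. Differences are CYGB+ minus NCE. The scripts were tested on simulated data.

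The fit of 3 replicates against 3 did not pair the samples. Replicate numbers shared by the groups paired them only in an alternative, the replicate block. It was included because the deviations of same-numbered replicates correlated at 0.22, 0.23 and 0.31, all over 0.1. Differently numbered pairs ran from -0.52 to 0.31, some as high, so the pairing is uncertain. Alternatives were the processed signal, scaling to the 75th percentile, other filters, the replicate block, slide as a term and slide 2 alone. Further ones were a t-test on the same replicate means and probes, the value table and leaving out each replicate. The t-test is the kind of test named in the study's methods. Named genes were all members, every called probe of the complex IV and electron donor lists, CYCS and CYGB, and those of the other complexes were only counted, except CYC1, which is also an electron donor. Members and lists were chosen with earlier results of these data known.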

Additional observations from a re-analysis of the deposited data

Results flagged for a closer look

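On repeat 1 of CYGB+ replicate 1, COX7A2 was at 15.32, far above the other 5 CYGB+ arrays, and COX6C at 13.03, far below them. Both gaps were past Dixon's critical value for 6 arrays. Of 20 such tests 2 passed, and chance passes about 1 in 20. The same array correlated least with the others over all probes tested.

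In the red channel, 10 of 10 subunit probes were well above background on all arrays. The labels do not say which RNA that channel holds, and it entered no comparison.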

How the results depend on the processing

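Calls moved with slide, with the replicates and with the arrays left out. Against 3 subunits and 2364 probes called, slide as a term gave 0 and 710. A t-test on the replicate means used here gave 1 (COX7B) and 793 at a false discovery rate of 5%. The study's methods name a t-test, but its own processing was not rerun, so these are not the study's counts. With slide as a term 38.3% of calls were higher in CYGB+, against 50.6%. The processed signal with quantile normalisation called 1 subunit (COX7C). The value table called 1444 probes. Leaving out 1 replicate gave 1 to 3 subunits and 522 to 2415 probes, the fewest without NCE replicate 2 or 3. Leaving out the array farthest from the rest, chosen after seeing the data, gave 4053 probes, and leaving out all 3 that stood apart gave 5 subunits and 4960 probes, with COX5B at 0.52 and COX6B1 at 0.34. The replicate block called 3141 probes and changed no subunit call.

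Differences near 0 changed sign. COX5A turned to 0.026 (processed signal) and 0.0069 (normexp) at the 75th percentile, 0.044 within slide 2, 0.037 in the value table and 0.019 without the NCE array on slide 2. COX4I1 turned to -0.10 with slide as a term and -0.059 within slide 2, and COX6A1 to -0.16 and -0.094. With 1 replicate left out, COX5A ran from -0.10 to 0.086, COX5B from -0.049 to 0.36 and COX6C from -0.057 to 0.20. COX7B, COX7C and COX8A kept their direction under all 19 alternatives. The causes were not tested.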
